A study of Mus musculus with 5 samples.

Results

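The genes described here are the mouse Cyp2 family of cytochrome P450 genes. Members were all annotated symbols that begin with Cyp2 and a letter, without pseudogene symbols, and there were 49 of them among the 31053 genes counted. Cyp2c has 15 members, Cyp2d and Cyp2j have 8 each, Cyp2b has 5, Cyp2a has 4, Cyp2e and Cyp2f have 1 each, and 7 belong to smaller subfamilies. They were read in hepatocytes of 5 single-cell libraries of mouse liver made with a 10x kit of version 3, from the strain C57BL/6J. One library came from mice at postnatal day 14 (P14), which had no operation. The other 4 came from adults of 8 weeks, namely a control and mice taken 24 h, 48 h or 96 h following PHx (partial hepatectomy), the removal of most of the liver. The treatment text of the labels counts all 4 adult samples as operated, whereas the title calls the first of them a control, and it was used as the control here. The number and sex of the animals are not given. All cells passed perfusion and a dead-cell removal step.

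Cytochrome P450 enzymes are heme proteins of the endoplasmic reticulum that use molecular oxygen and electrons from a reductase to oxidize lipophilic compounds. The Cyp2 family is the largest P450 family of the mouse, and most of its liver members act on drugs, toxicants, steroids or fatty acids. In adult liver many P450 genes are used unequally along the lobule, from the portal inflow (periportal) to the central vein (pericentral), and several differ between the sexes.

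With 1 library per group there is no spread between animals, no test was made, and all intervals cover counting error only. Levels are counts of unique molecular identifiers (UMIs, 1 per captured transcript) per 1000000 UMIs without mitochondrial genes (CPM), over hepatocytes with 5000 or more UMIs. There were 2106 such cells in P14, 925 in the adult control, while the 24 h library gave 1170, the 48 h library 719 and the 96 h library 771, with median depths between 18527 and 38922.5 UMIs. A floor of 3 counts corresponded to between 0.0465 and 0.225 CPM. Of 8 listed hepatocyte markers that the gate did not use, 7 were read, none was at 0, and their summed level was 72723 CPM in P14 and between 26997 and 34471 CPM in the adult libraries. Summed markers of T, NK and B cells reached at most 16.7 CPM and those of endothelial cells at most 16.0 CPM, whereas erythroid markers summed to between 123 and 761 CPM. Markers of macrophages summed to at most 10.6 CPM, of stellate cells to at most 46.1 CPM (P14) and of cholangiocytes to at most 33.8 CPM (24 h). In P14, Reln alone made up 45.6 CPM of the stellate sum, and at 24 h Sox9 made up all of the cholangiocyte sum. Other listed markers of these cell types were at or near 0 in the same libraries. Only 3 barcodes were shared between any of the libraries.

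Of the 49 members, 24 reached 50 CPM in a library, 5 peaked between 5 and 50 CPM, and 20 stayed under 5 CPM in every library. Of those 20, 10 had no UMI at all, namely Cyp2j7, Cyp2j11, Cyp2j12, Cyp2j13, Cyp2c65, Cyp2b19, Cyp2b23, Cyp2t4, Cyp2w1 and Cyp2ab1. Counts of close relatives can be mixed, since 15 of the 29 members above 5 CPM share at least one stretch of 91 bases near the transcript end with another gene. The shared part was largest for Cyp2c40 (31.1% of such stretches), Cyp2c68 (27.8%), Cyp2c69 (23.7%) and Cyp2c67 (22.4%), so the split of counts among these 4 genes is uncertain. It was 15.04% for Cyp2d9 and 13.8% for Cyp2d10, both with other Cyp2d genes, so their counts can also be mixed or lost. Overlap with a gene on the same strand was found for 4 of the 29, Cyp2b13, Cyp2d9, Cyp2d10 and Cyp2c29. In mm10 coordinates the 15 Cyp2c genes lie on chromosome 19, from Cyp2c55 (start 39007019) to Cyp2c70 (end 40187333), with Cyp2c23 apart at 44005022 to 44029208. Chromosome 7 holds 15 members, the Cyp2a, Cyp2b, Cyp2f2 and other genes between 25802475 and 27158668, and, far from them, Cyp2r1 (start 114549682) and Cyp2e1 (start 140763739). There are 8 on chromosome 15 (Cyp2d, 82370527 to 82794294) and 8 on chromosome 4 (Cyp2j, 96027534 to 96664154).

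Sequence upstream of the start sites is shown for 3 pairs of members whose levels differ from each other or from the adult, so that neighbours can be compared. RefSeq (GRCm38.p6) gave a window of 250 bases before to 50 after the annotated start for 41 members, 25 of them above 5 CPM. Windows are printed in the direction of transcription. Capitals mark matches on either strand to the TATA box (TATAAA), an HNF4 site (CAAAGTCCA) and a C/EBP or PAR bZIP site (TTATGCAA). The Lef/Tcf core (CTTTGA) was searched in the same way and is not marked. Cyp2b9 (chr7:26173159-26173458, plus strand) and Cyp2b13 (chr7:26061245-26061544, plus strand) are printed because both were counted almost only in P14:
Cyp2b9: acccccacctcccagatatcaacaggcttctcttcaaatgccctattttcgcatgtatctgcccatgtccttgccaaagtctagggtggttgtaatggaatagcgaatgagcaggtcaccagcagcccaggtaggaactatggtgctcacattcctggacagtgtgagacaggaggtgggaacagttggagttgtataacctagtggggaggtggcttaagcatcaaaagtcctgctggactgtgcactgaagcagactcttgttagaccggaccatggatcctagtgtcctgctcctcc
Cyp2b13: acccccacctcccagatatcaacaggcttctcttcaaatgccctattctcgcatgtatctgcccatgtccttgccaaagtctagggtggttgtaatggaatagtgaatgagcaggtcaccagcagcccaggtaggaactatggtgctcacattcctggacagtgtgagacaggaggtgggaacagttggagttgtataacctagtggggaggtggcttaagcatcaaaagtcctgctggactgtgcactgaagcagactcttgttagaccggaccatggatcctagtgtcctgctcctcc
These 2 windows are identical at 298 of 300 positions (99.3%). They differ by T48C and C104T, with Cyp2b9 as the reference and positions counted from 1 at the 5′ end of the window. Neither holds any of these motifs in these exact letters.

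Cyp2a4 (chr7:26306942-26307241, plus strand) and Cyp2a5 (chr7:26835089-26835388, plus strand) are printed because near-identical windows went with different levels, Cyp2a4 staying under 5 CPM in every library and Cyp2a5 reaching 67.3 CPM at 96 h:
Cyp2a4: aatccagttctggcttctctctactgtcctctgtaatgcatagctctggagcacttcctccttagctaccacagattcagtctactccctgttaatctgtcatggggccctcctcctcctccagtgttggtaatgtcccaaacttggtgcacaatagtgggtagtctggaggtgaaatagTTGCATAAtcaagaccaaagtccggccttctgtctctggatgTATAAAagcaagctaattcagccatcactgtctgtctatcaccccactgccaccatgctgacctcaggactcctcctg
Cyp2a5: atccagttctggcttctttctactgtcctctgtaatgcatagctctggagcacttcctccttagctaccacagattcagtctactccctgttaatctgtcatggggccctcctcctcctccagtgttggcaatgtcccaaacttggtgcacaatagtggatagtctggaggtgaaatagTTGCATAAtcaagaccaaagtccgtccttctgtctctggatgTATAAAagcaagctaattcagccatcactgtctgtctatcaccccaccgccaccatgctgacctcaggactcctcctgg
In a global alignment that allows gaps, 294 of 300 bases are identical, and both hold the TATA box and the TTATGCAA match. In the Cyp2a5 window the TATA box lies 29 to 24 bases before the annotated start and the TTATGCAA match 71 to 64 bases before it. The latter was found in 2 of the 25 windows of members above 5 CPM (Cyp2a5 and Cyp2b10) and in 0.792% of 27025 promoter windows. Other forms of this site were also searched. TTATGTAA was in 0 of 25 windows (0.955% of all) and TTGCGCAA in 0 of 25 (0.185%).

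Cyp2c67 (chr19:39648993-39649292, minus strand) and Cyp2c69 (chr19:39886720-39887019, minus strand) are printed because the first was high in adults and low in P14 and the second the reverse:
Cyp2c67: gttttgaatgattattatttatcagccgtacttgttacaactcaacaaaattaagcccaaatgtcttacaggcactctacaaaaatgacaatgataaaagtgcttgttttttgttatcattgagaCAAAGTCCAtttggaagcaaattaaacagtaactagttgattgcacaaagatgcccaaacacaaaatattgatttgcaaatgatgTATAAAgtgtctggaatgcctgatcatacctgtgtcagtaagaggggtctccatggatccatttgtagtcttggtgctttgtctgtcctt
Cyp2c69: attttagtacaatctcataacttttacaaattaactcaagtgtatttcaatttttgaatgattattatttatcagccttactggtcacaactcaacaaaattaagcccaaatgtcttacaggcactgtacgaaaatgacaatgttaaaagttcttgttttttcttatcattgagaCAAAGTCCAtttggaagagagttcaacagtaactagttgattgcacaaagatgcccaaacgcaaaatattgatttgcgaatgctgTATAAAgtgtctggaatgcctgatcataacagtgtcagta
Aligned in the same way, 233 of 300 bases are identical (77.7%). These windows begin at different places of the similar sequence, because the annotated starts differ, so bases at their ends have no partner. The share is therefore lower than that of the overlapping part and cannot be set against those of the other pairs. Both hold the HNF4 letters, 125 to 117 bases before the annotated start in Cyp2c67 and 75 to 67 bases before it in Cyp2c69. This motif was in 5 of 25 windows (20%, with Cyp2c40, Cyp2c68 and Cyp2c70), against 0.477% of all promoter windows. The TATA letters were in 16 of 25 windows (64%), against 14.2% of all. Their place differed: in Cyp2c69 and Cyp2c40 they begin at base 10 and base 40 after the annotated start, and in Cyp2j5 and Cyp2d40 they begin 128 and 91 bases before it, while in the others they begin between 40 and 19 bases before it. The Lef/Tcf core was in 4 of 25 (16%, Cyp2e1, Cyp2c29, Cyp2j5 and Cyp2c70) and in 16.2% of all promoter windows. A match is a description of letters and not a binding site, and 4 of the 5 windows with the HNF4 letters belong to neighbouring, similar genes.

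Cyp2 transcripts together made up 0.868% of hepatocyte UMIs in the adult control. Their summed level was 8675 CPM there (95% exact Poisson interval 8625 to 8725), 4405 CPM at 24 h (4376 to 4434), 5869 CPM at 48 h (5836 to 5902) and 6545 CPM at 96 h (6502 to 6589). It was 7058 CPM in P14 (7037 to 7078). The operated libraries were thus all below the control, 1.97-fold for the 24 h library, 1.48-fold for the 48 h library and 1.33-fold for the 96 h library. The 51 other P450 genes together did not share this order, with 4873 CPM in the control, 5188 CPM at 24 h, 3921 CPM at 48 h and 6075 CPM at 96 h. Cyp3a11, which is among them, alone had 1539, 3585, 2253 and 3446 CPM in the same order. Their sum thus partly follows Cyp3a11 and does not show the order of the remaining genes. For the Cyp2 total in P14 the direction depended on the scaling: log2((CPM + 1)/(CPM + 1)) over the control was −0.30 with total counts, −0.034 with DESeq2 size factors and 0.045 with TMM factors. TMM scaling moved the median of all genes in that comparison from −0.26 to 0.06, so P14 values below are to be read against −0.26.

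**Figure D1:**
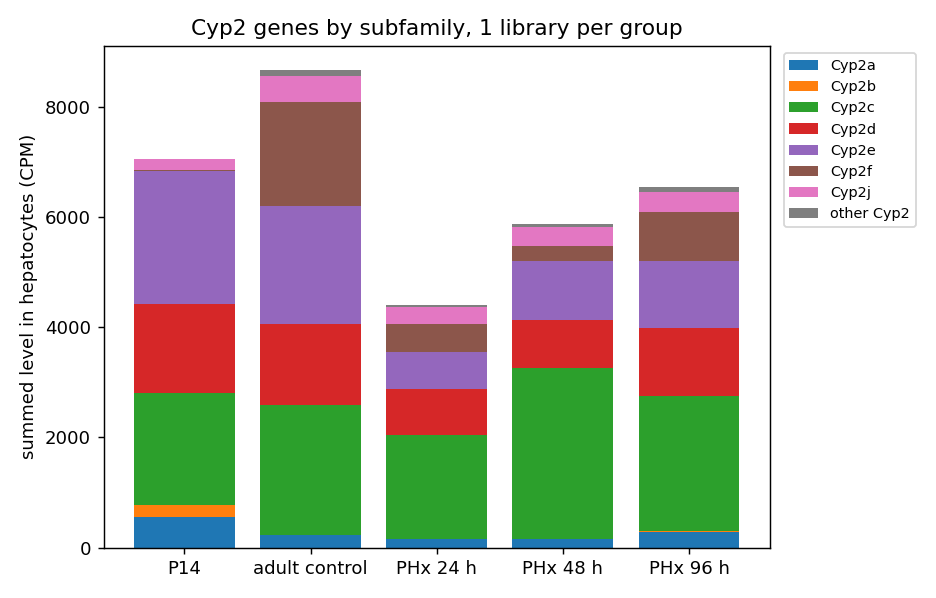
Summed level of Cyp2 genes in hepatocytes (CPM, linear axis from 0) in each of 5 libraries, stacked by subfamily. The total is 8675 CPM in the adult control and 4405 CPM at 24 h after PHx, and the Cyp2f block is 1882 CPM in the control and 31.3 CPM in P14.

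The subfamilies made up different shares of the total. Of all Cyp2 UMIs, Cyp2c genes supplied 28.9% in P14, 27.1% in the control, and then 43.0%, 52.8% and 37.5% in the libraries of 24 h, 48 h and 96 h. Their summed level was 2351 CPM in the control, 1894 CPM at 24 h, 3100 CPM at 48 h and 2458 CPM at 96 h, so the 48 h library lay above the control while the family total lay below it. Cyp2c29 alone had 392, 849, 1124 and 527 CPM in the same order. Most of the higher Cyp2c sum at 48 h, and of the higher Cyp2c share at 24 h, thus came from this gene. Cyp2e1 and Cyp2f2 held 24.7% and 21.7% of Cyp2 UMIs in the control, and 18.4% and 4.66% at 48 h. Cyp2d genes summed to 1477 CPM in the control, 818 CPM at 24 h, 869 CPM at 48 h, 1240 CPM at 96 h and 1620 CPM in P14. Cyp2j genes summed to 478 CPM in the control, 310 CPM at 24 h, 343 CPM at 48 h, 365 CPM at 96 h and 182 CPM in P14.

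After PHx, a gene counted as higher or lower when it differed by 2-fold or more on the log2(CPM + 1) scale and reached 5 CPM in either library. At 24 h, 10 of 23 members past this minimum were lower than in the control, against 7.13% of all genes, and 2 were higher, against 8.51%. At 48 h, 5 of 24 were lower (7.63% of all genes) and 3 were higher (8.3%). At 96 h, 2 of 25 were lower (1.88%) and 3 were higher (4.07%). The 96 h counts depended on the setting, with 1 to 8 lower and 1 to 7 higher under the alternatives. Some members passed the minimum through 1 library only and could then be counted in 1 direction alone: Cyp2c55 at all 3 times, Cyp2c38 at 48 h and 96 h, Cyp2b10 at 96 h and Cyp2c40 at 24 h and 96 h. In the same order the members' median log2 ratio was −0.91, −0.34 and −0.01, beside medians of 0.00, −0.08 and 0.04 over all genes. These 3 comparisons share the control library and are not independent of each other. Neutrophil markers, led by S100a8 and S100a9, summed to 10.4 CPM in control hepatocytes, 101 CPM at 24 h, 188 CPM at 48 h and 20.8 CPM at 96 h, and their part in these results was not tested.

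Between consecutive operated libraries, 7 of 24 members were at least 2-fold higher at 48 h than at 24 h, against 1.78% of all genes, and 0 were lower, against 1.76%. The 7 were Cyp2c37, Cyp2c38, Cyp2c40, Cyp2c50, Cyp2c54, Cyp2c68 and Cyp2d40, so 6 of them are Cyp2c genes, although Cyp2c38 and Cyp2c40 reached 5 CPM only at 48 h. From 48 h to 96 h, 6 of 25 were higher (4.38% of all genes), namely Cyp2a5, Cyp2b10, Cyp2f2, Cyp2d9, Cyp2d22 and Cyp2u1, and 1, Cyp2c29, was lower (4.24%), and Cyp2b10 reached 5 CPM only at 96 h. Of the 20 members with 50 CPM or more in an adult library, 14 were lowest at 24 h, 5 at 48 h and 1 in the control. The matching shares over all genes were not computed, so these counts are a description. At 96 h, 14 of these 20 were within 1.5-fold of the control, and the ratios at that time depended on the cells taken. Over all genes the 25th and 75th percentiles of the log2 ratio at 96 h were −0.23 and 0.33, both within 1.5-fold. Lying this close to the control was thus not particular to the members.

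**Figure D2:**
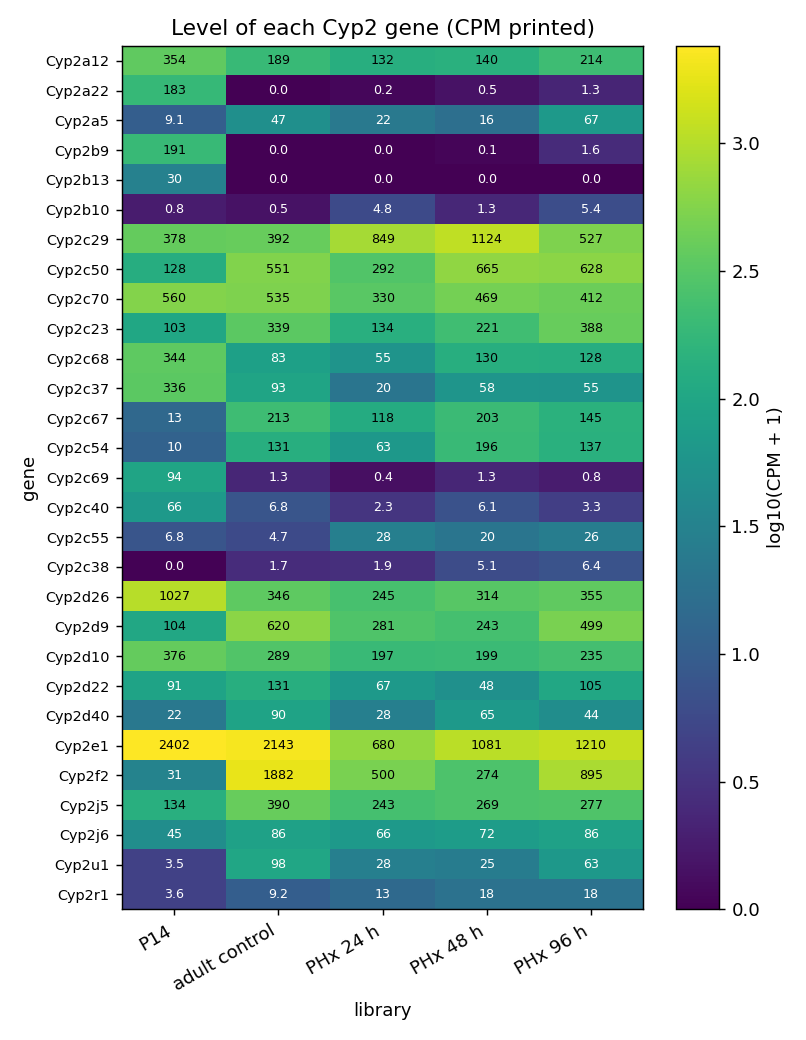
Level of the 29 Cyp2 genes that reached 5 CPM in a library (rows) in 5 hepatocyte libraries (columns), with the CPM printed in each cell and the colour on a log10(CPM + 1) scale. Cyp2c29 is highest at 48 h with 1124 CPM, and Cyp2b9, Cyp2b13, Cyp2a22 and Cyp2c69 are high in the P14 column alone.

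Cyp2e1, which oxidizes ethanol and acetaminophen (ENSMUSG00000025479, chr7:140763739-140774987), stood at 2402 CPM in P14, 2143 CPM in the control, 680 CPM at 24 h, 1081 CPM at 48 h and 1210 CPM at 96 h. The P14 and control libraries were high, and all 3 operated libraries were lower. The control exceeded 24 h 3.15-fold (3.08 to 3.21), 48 h 1.98-fold (1.95 to 2.02) and 96 h 1.77-fold (1.74 to 1.81). The direction at 96 h turned in 1 alternative, a hepatocyte gene share of at least 5% that left 47 control cells, where the log2 ratio of Cyp2e1 was 0.037 against −0.82 here. Cyp2f2, a lung and liver enzyme known for activating naphthalene (chr7:27119909-27133660), was at 31.3 CPM in P14, 1882 CPM in the control, 500 CPM at 24 h, 274 CPM at 48 h and 895 CPM at 96 h. It was thus lowest among adults at 48 h, 6.88-fold below the control (6.68 to 7.08), and the 96 h library was 2.10-fold below it (2.06 to 2.15), a call near the limit whose log2 ratio of −1.07 became −0.92 under an alternative. Its P14 level was 60.1-fold below the adult control (57.4 to 62.9).

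Cyp2c29, an enzyme of xenobiotic and fatty acid oxidation, took the other direction after PHx. Its level was 378 CPM in P14, 392 CPM in the control, 849 CPM at 24 h, 1124 CPM at 48 h and 527 CPM at 96 h. The log2 ratio over the control was 1.11 for the 24 h library and 1.52 for the 48 h library. With 10 to 20% mitochondrial UMIs the ratio of Cyp2c29 was 0.50 at 24 h, under the limit, and −0.44 at 96 h, against 0.43 here, so its direction at 96 h depended on the cells taken. Cyp2c55 exceeded the control in every operated library, with 4.73 CPM in the control and 28.0 CPM, 19.9 CPM and 25.7 CPM at 24 h, 48 h and 96 h. The other Cyp2c genes differed among themselves, as shown by Cyp2c37 with 336 CPM in P14, 92.6 CPM in the control and 19.8 CPM, 57.5 CPM and 55.0 CPM at the 3 times. Its ratio at 24 h, 4.67-fold below the control (4.16 to 5.25), was the lowest of any member at that time. Cyp2c50 stood at 128 CPM in P14, 551 CPM in the control, 292 CPM at 24 h, 665 CPM at 48 h and 628 CPM at 96 h. Cyp2c54 had 10.5 CPM in P14, 131 CPM in the control, 62.7 CPM at 24 h, 196 CPM at 48 h and 137 CPM at 96 h. Both were low at 24 h. Their direction at 48 h depended on the cells taken, since with 10 to 20% mitochondrial UMIs the log2 ratio over the control was −0.11 for Cyp2c50 and −0.05 for Cyp2c54, against 0.27 and 0.57 here.

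Cyp2c70, which makes the muricholic acids that set mouse bile apart, spanned a 1.69-fold range. It had 560 CPM in P14, 535 CPM in the control, 330 CPM at 24 h, 469 CPM at 48 h and 412 CPM at 96 h. Cyp2c23, an epoxygenase of arachidonic acid, had 103 CPM in P14, 339 CPM in the control, 134 CPM at 24 h, 221 CPM at 48 h and 388 CPM at 96 h. The similar genes Cyp2c67 and Cyp2c68, whose counts can be mixed or lost, went opposite ways between P14 and the control. Cyp2c67 had 12.9 CPM in P14, 213 CPM in the control, 118 CPM at 24 h, 203 CPM at 48 h and 145 CPM at 96 h. Cyp2c68 had 344 CPM in P14, 82.6 CPM in the control, 54.6 CPM at 24 h, 130 CPM at 48 h and 128 CPM at 96 h.

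Among the Cyp2d genes, Cyp2d26 was highest in P14, with 1027 CPM there, 346 CPM in the control, 245 CPM at 24 h, 314 CPM at 48 h and 355 CPM at 96 h. Cyp2d9, a steroid hydroxylase that is predominant in males and can share counts with its neighbours, had 104 CPM in P14, 620 CPM in the control, 281 CPM at 24 h, 243 CPM at 48 h and 499 CPM at 96 h. Cyp2d10 (197 to 376 CPM), Cyp2d22 (48.1 to 131 CPM) and Cyp2d40 (21.6 to 90.1 CPM) completed this subfamily above 5 CPM, and Cyp2d40 was 2.05-fold below the control at 96 h (1.85 to 2.26), also near the limit, with a log2 ratio of up to −0.89 under an alternative. Cyp2j5 and Cyp2j6, epoxygenases of polyunsaturated fatty acids, ranged from 134 to 390 CPM and from 45.1 to 86.2 CPM, and each was lowest in P14. Cyp2j5 was highest in the control, while Cyp2j6 had overlapping counting intervals in the control (81.3 to 91.3 CPM) and at 96 h (80.8 to 90.7 CPM). Cyp2u1, a fatty acid hydroxylase, had 3.47 CPM in P14, 98.4 CPM in the control, 28.1 CPM at 24 h, 25.4 CPM at 48 h and 62.9 CPM at 96 h. Cyp2r1, the microsomal vitamin D hydroxylase, had 3.56 CPM in P14, 9.24 CPM in the control and 13.2, 17.7 and 17.9 CPM at the 3 times.

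Cyp2a12, a steroid hydroxylase, had 354 CPM in P14, 189 CPM in the control, 132 CPM at 24 h, 140 CPM at 48 h and 214 CPM at 96 h. Cyp2a5, the coumarin hydroxylase, had 9.09 CPM in P14, 46.6 CPM in the control, 22.4 CPM at 24 h, 16.1 CPM at 48 h and 67.3 CPM at 96 h. It was below the control at 24 h and 48 h. The direction at 96 h depended on the cells taken, with a log2 ratio of 0.52 here, −1.70 with 10 to 20% mitochondrial UMIs, and 48.5 against 48.2 CPM in non-cycling cells. Cyp2b10, the classical target of the receptor CAR (Nr1i3), stayed low throughout, at 0.836 CPM in P14, 0.451 CPM in the control, 4.77 CPM at 24 h, 1.34 CPM at 48 h and 5.36 CPM at 96 h. The control value rests on 6 UMIs, and the 96 h ratio of 11.9-fold has a counting interval of 5.20 to 33.5.

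**Figure D3:**
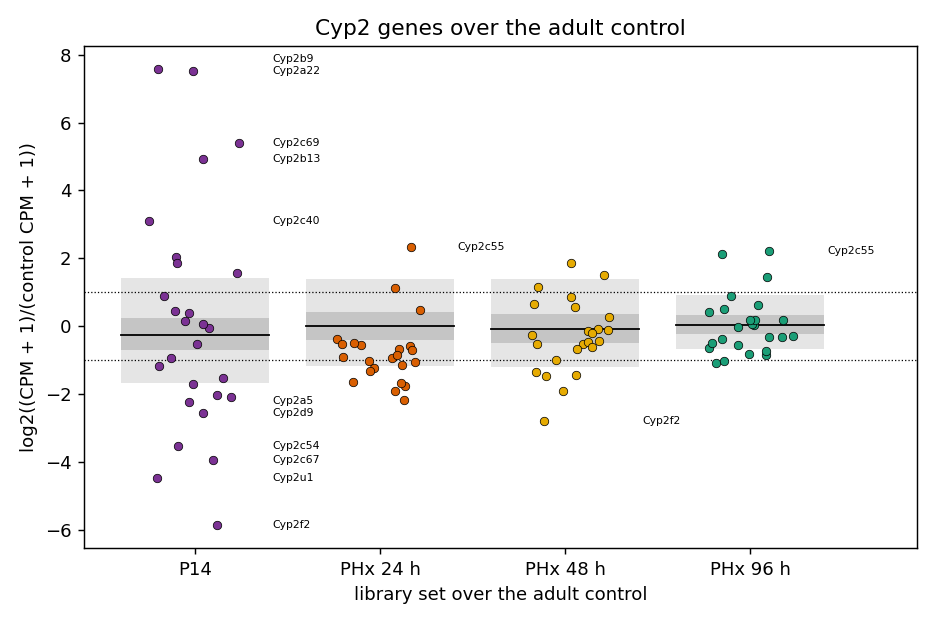
Log2 ratio of each Cyp2 gene over the adult control (points, genes at 5 CPM or more in either library) for P14 and 3 times after PHx. Grey boxes span the 5th to 95th and 25th to 75th percentiles of all genes and the black line is their median, dotted lines mark 2-fold, and the genes farthest from 0 are named. P14 points span from −5.86 to 7.58, while at 96 h most lie between the dotted lines.

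In P14, most members differed from the adult control. Of 27 members past the minimum, 8 were at least 2-fold higher in P14, against 7.89% of all genes, and 11 were lower, against 13.8%, which left 8 within 2-fold. Of those counted, Cyp2b9, Cyp2b13, Cyp2a22 and Cyp2c69 reached 5 CPM only in P14 and Cyp2u1 and Cyp2r1 only in the control, which fixes their direction. The members' median was −0.05, beside −0.26 over all genes. Among the lower ones, Cyp2u1 was 28.4-fold (24.6 to 32.8) and Cyp2c54 12.5-fold (11.5 to 13.7) below the control. The log2 ratio of Cyp2c54 was −3.53, and −0.86 with a hepatocyte gene share of at least 5%, which ends that call. Under the same setting the ratio of Cyp2c50, −2.10 here, was 0.14, and the calls of Cyp2a5, Cyp2d26 and Cyp2c37 were also lost under an alternative.

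The P14 library also differed in sex markers. Xist, the RNA of the inactive X chromosome, was at 840 CPM in P14 and at most 0.0744 CPM in the 4 adult libraries. Ddx3y had 0 UMIs in P14 and between 112 and 140 CPM in the adult libraries. The labels do not give the sex of the animals, and in this series age and these sex markers cannot be told apart. Of the 5 Cyp2 genes listed as female-predominant, Cyp2b9, Cyp2b13 and Cyp2c69 reached 5 CPM only in P14, Cyp2c40 did so in the control too, and Cyp2a4 in neither, so they are described by their values. Cyp2b9, a steroid hydroxylase, had 191 CPM in P14, 0 UMIs in the control and at 24 h, 0.0960 CPM at 48 h and 1.64 CPM at 96 h. Against a floor of 3 counts over the control hepatocytes it was at least 847-fold higher in P14. Cyp2b13 had 29.6 CPM in P14 and no UMI in any adult library (at least 132-fold). Cyp2c69 had 94.1 CPM in P14 and between 0.359 and 1.30 CPM in adults, and Cyp2c40 had 66.2 CPM and between 2.31 and 6.76 CPM.

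Cyp2a22, which is not on that list, was likewise high in P14 and near 0 in adults, with 183 CPM in P14, 0 UMIs in the control, 0.154 CPM at 24 h, 0.480 CPM at 48 h and 1.26 CPM at 96 h (at least 813-fold above the control). Cyp2a4, a steroid hydroxylase and the last of the listed genes, missed the minimum with 4.09 CPM in P14 and 4.54 CPM at 96 h. Outside the family, the female-predominant Cyp3a44 had 232 CPM in P14 and 0 UMIs in the control. The 7 listed male-predominant liver genes lay between 0 and 0.604 CPM in P14 and between 59.6 and 21418 CPM in the control. The male-predominant genes were also below the control after PHx, 7 of 7 at 24 h (7.13% of all genes) and at 48 h (7.63%) and 6 of 7 at 96 h (1.88%), where Xist stayed near 0 and Ddx3y at adult levels. One of the 7, Ugt2b38, reached 5 CPM at 24 h and 48 h only through the control. Elovl3 had 254 CPM in the control, 69.2 CPM at 24 h, 53.2 CPM at 48 h and 50.4 CPM at 96 h, and Mup20 had 21418 CPM, 10523 CPM, 2656 CPM and 4464 CPM in the same order.

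The lobule was read from 24 landmark genes without any Cyp gene (12 pericentral such as Glul and Oat, and 12 periportal such as Hal and Sds). Cells were ordered by these landmarks at 5000 UMIs each, and in each library the most pericentral tercile was set against the most periportal one. The order is continuous: between 55 and 238 cells lay within 0.1 score units of a border. Landmark contrast itself differed, the pericentral landmarks summing to log2 ratios of 1.56 in P14, 3.19 in the control and 2.52, 2.28 and 3.54 in the operated libraries by time. Median depth per cell differed most between the terciles at 96 h, with 26118 UMIs in the pericentral and 18985 UMIs in the periportal one. The family total was higher pericentrally in each library, by 0.67 in P14, 0.83 in the control and 0.93, 1.10 and 0.91 at the 3 times on the log2 scale.

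In P14, 6 of 26 members were pericentral by 2-fold or more (0.715% of all genes) and 1 was periportal (1.04%). In the adult control 10 of 23 were pericentral (1.58%) and 1 was periportal (1.15%). The counts were 11 of 25 (2.2%) and 2 (0.89%) at 24 h, 10 of 24 (1.09%) and 2 (1.26%) at 48 h, and 12 of 27 (3.79%) and 1 (1.56%) at 96 h. Members past this limit in each of the 4 adult libraries were Cyp2e1, Cyp2a5, Cyp2c29, Cyp2c37, Cyp2c40, Cyp2c50, Cyp2c54, Cyp2c55 and Cyp2c67, and Cyp2f2 was periportal in all 5 libraries. Some members passed the minimum through the pericentral tercile only and could then be counted in that direction alone. Among them were Cyp2c40 in the adult libraries, Cyp2a5 in P14 and the operated libraries, and Cyp2c37 at 24 h and 96 h. The same holds for Cyp2c38 at 24 h and Cyp2g1 at 96 h. It can also hold for Cyp2c55 in the control (4.73 CPM over all hepatocytes) and Cyp2c38 at 48 h (5.09 CPM), both counted as pericentral.

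Cyp2e1 had a pericentral to periportal log2 ratio of 1.78 in P14, 3.37 in the control, and 2.98, 3.06 and 5.12 in the operated libraries by time. The periportal tercile held 78.9 CPM at 96 h and 444 CPM in the control, which became 43.2 and 90.3 CPM after subtraction of free RNA. Cyp2c29 had a ratio of 0.50 in P14 (428 and 301 CPM in the 2 terciles), 4.69 in the control (1016 and 38.3 CPM), and 5.34, 4.25 and 5.74 in the operated libraries. Its similar totals in P14 and the control, 378 and 392 CPM, therefore had different distributions along the order. Cyp2c37 gave 0.93 in P14 and between 3.87 and 5.47 in adults, and Cyp2c50 gave 1.74 in P14, 3.76 in the control, and 3.69, 2.04 and 2.90 by time. Cyp2a5 at 96 h had 173 CPM in the pericentral and 1.52 CPM in the periportal tercile (6.11), beside 3.94 in the control and 2.56 in P14. With free RNA subtracted these ratios were 7.49, 6.92 and 2.59, and 0 CPM was left periportally in the control and at 96 h.

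Cyp2f2 was periportal with log2 ratios of −3.04 in P14, −2.19 in the control, and −3.40, −5.83 and −3.46 by time. At 48 h its level was low over more of the order, with 833 CPM in the most periportal quintile of cells, 431 and 131 CPM in the next quintiles, and 15.2 and 8.19 CPM in the last. In the control the first 3 quintiles held 2859, 2676 and 2410 CPM and the last 2 held 1485 and 237 CPM. Cyp2a12 was higher periportally in each library and past 2-fold in the libraries of 24 h and 48 h, at −0.74 in P14, −0.68 in the control, and −1.46, −1.67 and −0.40 by time. Of the Cyp2d and Cyp2j genes past the minimum, none passed 2-fold in any library. Cyp2d26 was lower pericentrally in each, at −0.77 to −0.07, and Cyp2d40 was higher pericentrally in each, at 0.40 to 0.78. Cyp2d9 gave between −0.24 and 0.36, and Cyp2j5 between −0.36 and 0.05. In single cells at 5000 UMIs, the log counts of Cyp2e1 and Cyp2f2 had Pearson's r of −0.24 over 2106 cells in P14, −0.74 over 925 in the control, and −0.63, −0.65 and −0.78 in the operated libraries by time. These cells share a library, so r is a description. Cyp2f2 had a mean of 0.128 UMIs per such cell in P14 and 7.45 in the control, so sparse counts can weaken r in P14.

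**Figure D4:**
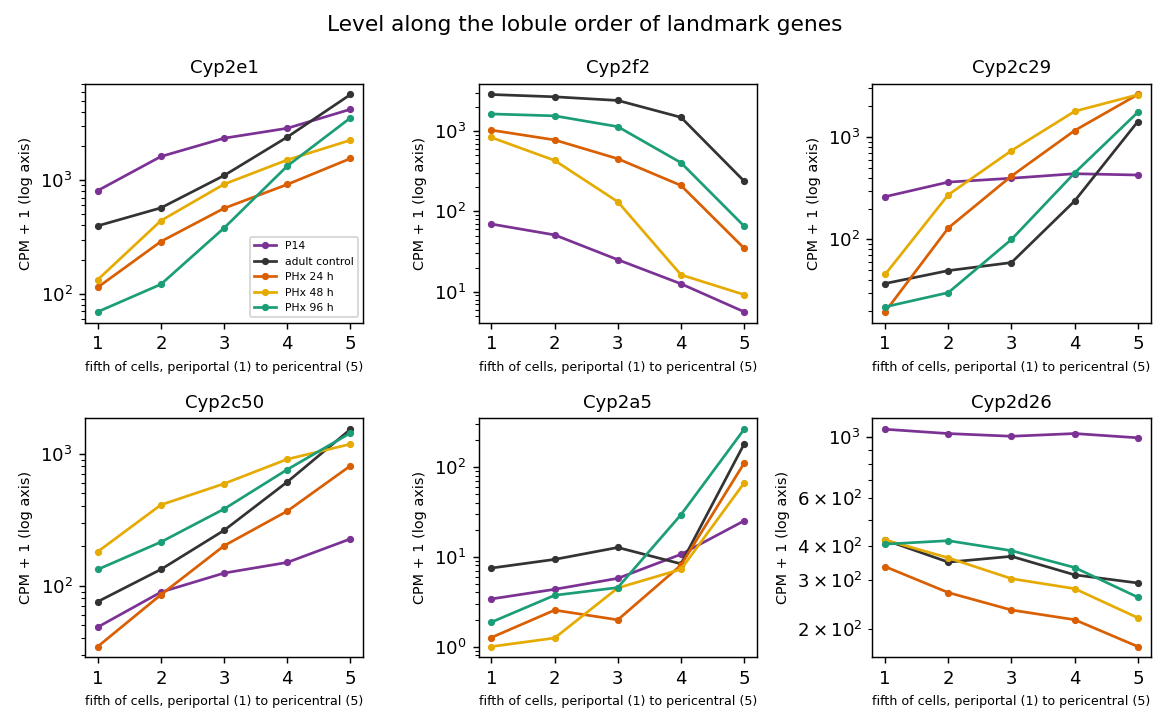
Level (CPM + 1, log axis) of 6 Cyp2 genes in quintiles of hepatocytes ordered from periportal (1) to pericentral (5) by landmark genes that hold no Cyp gene, 1 line per library. Cyp2c29 spans 36.0 to 1425 CPM in the adult control and 261 to 439 CPM in P14, and Cyp2d26 has a shallower profile.

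Free RNA limits the low ends of these profiles, mostly in the adult control. Lymphocyte barcodes, which should hold few Cyp2 transcripts of their own, had a Cyp2 level of 2123 CPM in the control (917 barcodes, median 5810 UMIs), 245 CPM in P14, and 324, 141 and 580 CPM at 24 h, 48 h and 96 h. Cyp2s1 was an exception, with 1.91 CPM in control lymphocyte barcodes and 0.0751 CPM in control hepatocytes, and it adds little to the sum. The mean content of empty droplets amounted to 10.0% of the hepatocytes' Cyp2 UMIs in the control and to between 0.395% and 2.26% in the other libraries. For Cyp2e1 in the control the figure was 15.9%. After subtraction of this content the pericentral to periportal log2 ratio of Cyp2e1 became 1.81 in P14, 5.69 in the control, and 3.16, 3.09 and 6.02 by time. That of Cyp2c29 became 0.51 in P14 and 10.07 in the control, where 0 CPM was left in the periportal tercile. The order of libraries by this contrast thus depends on free RNA among the adults, while P14 stayed lowest for both genes. The zero counts of Cyp2b9 and Cyp2b13 in the control are not touched by it.

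Cycling hepatocytes were those with 3 or more of 25 mitosis genes at 5000 UMIs, and non-cycling ones those with 0. Cycling cells numbered 252 in P14, 5 in the control, and 170, 296 and 73 by time after PHx, and the control was left out of this comparison. In the operated libraries cycling cells were deeper, with a median of 42367.5 against 32197 UMIs at 48 h, and the part of depth in these ratios was not tested. The Cyp2 total in cycling over non-cycling cells of the same library had a log2 ratio of −0.45 in P14, and −0.0044, −0.22 and 0.20 by time after PHx. The median over all genes was 0.24, 0.13, 0.20 and 0.24 in the 4 libraries.

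In P14, 0 of 27 members were 2-fold higher in cycling cells (8.51% of all genes) and 0 were lower (0.112%). At 24 h, 1 of 23 was higher (7.1%) and 0 were lower (0.366%), and at 48 h, 1 of 23 was higher (6.77%) and 0 were lower (0.475%). The gene was Cyp2a5 both times, with 41.0 and 17.8 CPM in cycling and non-cycling cells at 24 h and 24.3 and 9.75 CPM at 48 h. Its call at 24 h was lost when cycling cells needed at least 5 mitosis genes. At 96 h, 7 of 26 were higher (9.16%) and 1 was lower (2.02%). The higher ones included Cyp2c37 with 131 and 39.5 CPM, Cyp2c29 with 1066 and 424 CPM, and Cyp2a5 with 148 and 48.5 CPM. The lower one was Cyp2f2, with 376 and 1064 CPM. Cyp2a4, among the higher ones, had 4.54 CPM over all 96 h hepatocytes. It passed the minimum through cycling cells only and could be counted in that direction alone. Cyp2c38 had 6.40 CPM over all 96 h hepatocytes, and the same can hold for it. Of the 7, Cyp2a5, Cyp2c29, Cyp2c37, Cyp2c38 and Cyp2c55 were also pericentral at 96 h, and the part of lobular position in these ratios was not tested. Cyp2d26 was lower in cycling cells in each of the 4 libraries, by between 0.34 and 0.73 on the log2 scale.

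In non-cycling hepatocytes alone, the log2 ratio of the Cyp2 total over non-cycling control cells was −0.99, −0.43 and −0.44 by time. Over all hepatocytes it was −0.98, −0.56 and −0.41. For Cyp2f2 it was −1.75, −2.47 and −0.82, against −1.91, −2.78 and −1.07 over all. Cyp2f2 was thus within 2-fold at 96 h in non-cycling cells. For Cyp2c29 it was 0.999, 1.62 and 0.08, against 1.11, 1.52 and 0.43 over all. The 24 h value of Cyp2c29 was thus just under 2-fold in non-cycling cells.

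**Figure D5:**
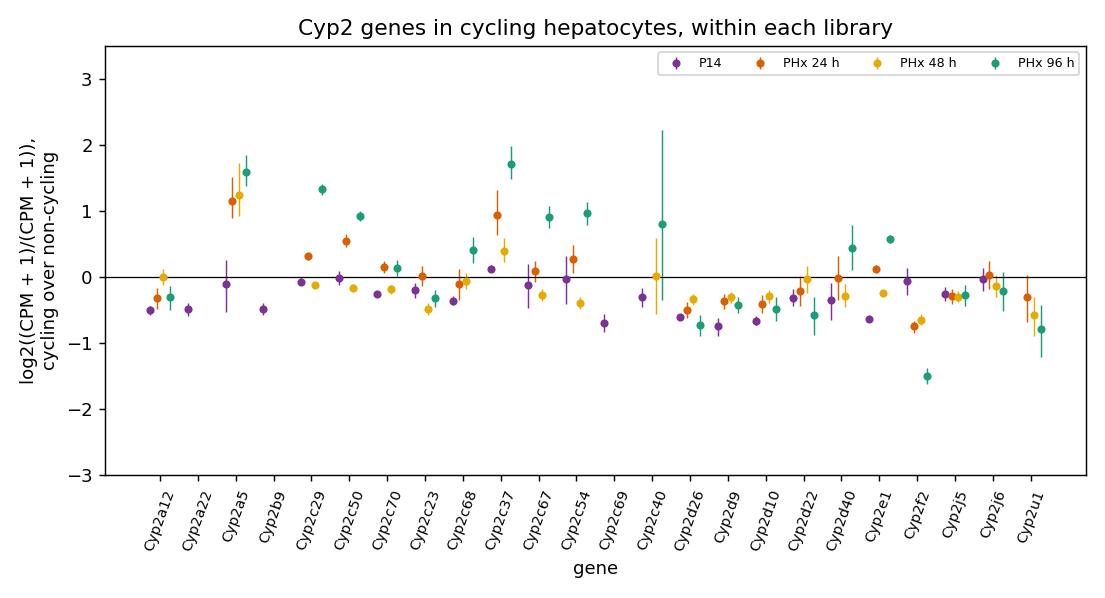
Log2 ratio of CPM + 1 in cycling over non-cycling hepatocytes of the same library for Cyp2 genes above 50 CPM in a library, drawn where either set of cells reached 5 CPM, with 95% intervals for counting error. Points above 1 are Cyp2a5 in the 3 operated libraries and Cyp2c29 and Cyp2c37 at 96 h, and Cyp2f2 lies below 0 after PHx.

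Regulators of P450 genes were read from a list of 25. In P14, 5 of 25 were at least 2-fold higher than in the control (7.89% of all genes) and 4 were lower (13.8%), the latter near the share over all genes. Of those counted, Cux2 reached 5 CPM only in P14 and Bcl6 and Socs3 only in the control, which fixes their direction. At 24 h, 8 of 24 past the minimum were lower (7.13%) and 3 were higher (8.51%). The 48 h library had 9 lower (7.63%) and 1 higher (8.3%), and the 96 h library 2 lower (1.88%) and 1 higher (4.07%). In the 48 h comparison Dbp reached 5 CPM only in the control, which fixes its direction. Cebpa, a hepatocyte transcription factor, had 165 CPM in P14, 352 CPM in the control, 72.5 CPM at 24 h, 81.2 CPM at 48 h and 263 CPM at 96 h. Dbp, a clock-controlled activator of Cyp2 genes, had 13.1 CPM in P14, 152 CPM in the control, 9.07 CPM at 24 h, 3.22 CPM at 48 h and 119 CPM at 96 h. Both were low at 24 h and 48 h and closer to the control at 96 h. The hour of collection is not given in the labels. Nr1i3, which encodes CAR, had 155 CPM in P14, 47.7 CPM in the control, 85.5 CPM at 24 h, 61.8 CPM at 48 h and 40.4 CPM at 96 h. Il1r1, a receptor of a cytokine known to lower P450 expression, had 35.7 CPM in the control, 157 CPM at 24 h, 70.4 CPM at 48 h, 28.9 CPM at 96 h and 28.1 CPM in P14. Socs3 and Il6ra, on the same list, did not share this order. From control to 96 h, Socs3 had 69.7, 40.4, 22.5 and 12.9 CPM, and Il6ra 55.0, 65.4, 57.2 and 50.3 CPM. The part of cytokines was not tested. Hnf4a stood at 389 CPM in the control and between 230 and 337 CPM in the other libraries.

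Electron transfer partners of P450 enzymes and genes of heme synthesis were also listed. Of their 14 genes, 5 were lower (13.8% of all genes) and 3 were higher (7.89%) in P14 than in the control. Hmox1, among the lower ones, reached 5 CPM only in the control, which fixes its direction. At 24 h, 1 was lower (7.13%) and 2 were higher (8.51%), at 48 h 1 was lower (7.63%) and 1 was higher (8.3%), and at 96 h 0 were lower (1.88%) and 1 was higher (4.07%). After PHx these counts were thus close to the shares over all genes. Por, the reductase that serves all of these enzymes, had 346 CPM in P14, 149 CPM in the control, 265 CPM at 24 h, 163 CPM at 48 h and 133 CPM at 96 h. The 12 listed drug-metabolizing P450 genes of other families summed to 2154 CPM in P14, 2486 CPM in the control, 4272 CPM at 24 h, 2926 CPM at 48 h and 4438 CPM at 96 h. Most of this sum in each library was Cyp3a11, with 1266 CPM in P14, 1539 CPM in the control, 3585 CPM at 24 h, 2253 CPM at 48 h and 3446 CPM at 96 h. After PHx Cyp3a11 stood above the control where Cyp2e1 and Cyp2f2 stood below it, and the sum mainly follows this gene. Gstm3, a glutathione transferase, had 19.8 CPM in the control, 554 CPM at 24 h, 61.6 CPM at 48 h, 73.9 CPM at 96 h and 5.06 CPM in P14.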

How the data were processed

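The authors deposited, for each of 5 libraries, a matrix of whole-number UMI counts (genes by barcodes), written by software version 3.0.2 per the file headers. The submitters' processing notes name bcl2fastq 2.17.1.14, Cell Ranger, Seurat 3.1 and the build mm10, and the filters behind the files are not given in the sources used here. The matrices list 6794880 barcodes each, with library totals between 80927744 and 136110607 UMIs. Hepatocytes were barcodes with at least 5000 UMIs, 10 to 30% mitochondrial UMIs and Alb, Apoa1 and Ttr together at least 1% of UMIs. They held 131681259 UMIs without the 13 mitochondrial genes. No doublet caller was run. An alternative leaves out the 5% of cells with most UMIs. Within a library the counts of all hepatocytes were added up and expressed as CPM. Ratios have a pseudocount of 1 CPM, and intervals are exact Poisson intervals at 95%. UMI counts mark molecules at the transcript end, so levels were not divided by length. The sample descriptions carry a code that ends in L002 in the adult control but in L001 elsewhere, and what it marks cannot be told apart from the control group.

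Members and gene lists were chosen with earlier results of these data known. Named are members with at least 50 CPM in a library, those of the sex and zone lists, the extreme ratio of each comparison and, outside the family, listed genes. Lists cover hepatocytes and other cell types, landmarks, mitosis, regulators, redox partners, other P450 genes, CAR or PXR targets, sex and dissociation. Dissociation genes such as Fos and Jun summed to between 494 and 900 CPM in all libraries. Fos and Jun were at least 2-fold above the control at 48 h and 96 h, and Hspa1b was below it in P14 and at all 3 times, and their part in the results was not tested. Of 11 CAR or PXR targets outside the family, 3 were higher and 4 lower in P14 (7.89% and 13.8% of all genes). Among the higher ones, Ugt1a1 and Gadd45b reached 5 CPM only in P14, which fixes their direction. After PHx 9 passed the minimum, and 2 were higher at 24 h (8.51%), 1 at 48 h (8.3%, near the share over all genes) and 2 at 96 h (4.07%), with 0 lower. Gene positions and strand overlaps came from GENCODE M21, which matched all 49 members, and shared stretches from its transcripts. Tools were Python 3.11.15, numpy 2.4.6, scipy 1.17.1, pandas 2.3.3, Biopython 1.88, and, for scaling factors, edgeR 4.0.16 (TMM) and DESeq2 1.42.0 in R 4.3.3. The scripts were tested on simulated data.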

Additional observations from a re-analysis of the deposited data

How the results depend on the processing

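With 1 library per group no replicate could be left out. No paired analysis was possible because each group has 1 library. The family's log2 ratio over the adult control, −0.30 in P14, −0.98 at 24 h, −0.56 at 48 h and −0.41 at 96 h, kept its sign after PHx under every alternative run. In that order it was 0.045, −0.92, −0.48 and −0.42 with TMM scaling, −0.034, −0.95, −0.50 and −0.44 with DESeq2 size factors, −0.58, −1.24, −0.73 and −0.72 with 10 to 20% mitochondrial UMIs (87 control cells and 53 at 96 h), and −0.28, −0.94, −0.54 and −0.36 with free RNA subtracted. With mitochondrial UMIs in the total it was −0.21, −0.94 and −0.53 for the first 3. Without the 5% of cells with most UMIs it was −0.95, −0.58 and −0.42 after PHx, and −0.88, −0.49 and −0.45 as the mean over cells. It was −0.99 at 24 h with 10000 UMIs, −0.43 at 96 h with 5 to 30% mitochondrial UMIs and −0.21 in P14 with a hepatocyte gene share of 5%, which left 47 control cells and reversed Cyp2c50 in P14 (0.14). That share was not computed at 24 h and 48 h, where 6 and 2 cells were left. The cause was not tested. No alternative raised the limit of 30% mitochondrial UMIs, so cells above it were never part of these ratios. At 96 h, 1701 barcodes that met the other limits lay above it, beside 771 kept. The adult control had 501 above it beside 925 kept, and P14 had 446 beside 2106. The 24 h library had 462 beside 1170, and the 48 h library 363 beside 719.

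The number of lower members became 16 at 24 h and 8 at 48 h with a 1.5-fold limit, and 8 at 48 h with 10 to 20% mitochondrial UMIs. At 24 h, where it was 10, it became 14 with 10 to 20% mitochondrial UMIs. It became 8 there with TMM scaling or free RNA subtracted, and 7 with a pseudocount of 10. At 48 h, 5 were higher at 1.5-fold. At 96 h the higher count was 1 with mitochondrial UMIs in the total or a pseudocount of 10, 7 with the 5% hepatocyte share or no minimum, and 5 at 1.5-fold. The lower count there was 1 with 10000 UMIs or a pseudocount of 10, 8 with 10 to 20% mitochondrial UMIs, 4 with the 5% share and 6 at 1.5-fold. Sixths in place of terciles gave 2 periportal members in P14, the control and 96 h and 4 at 24 h and 48 h. With 5 mitosis genes 0 members were higher in cycling cells at 24 h. Of 24 members at 50 CPM or more, the sign was the same under all alternatives for 18 in P14, 24 at 24 h, 20 at 48 h and 12 at 96 h, so the single ratios at 96 h depend on the setting. Of those past 2-fold, 12 of 17 stayed past it under all alternatives in P14 (not Cyp2a5, Cyp2d26, Cyp2c37, Cyp2c54 and Cyp2c50), 7 of 11 at 24 h (not Cyp2a5, Cyp2c29, Cyp2c40 and Cyp2c54), 6 of 6 at 48 h and 0 of 4 at 96 h (Cyp2f2, Cyp2d40 and, on low counts, Cyp2b9 and Cyp2a22). The counts of members with the same sign include Cyp2b9 and Cyp2a22. Both had 0 UMIs in the control, so their ratios could not turn negative. At 24 h Cyp2b9 had 0 UMIs in both libraries and a ratio of 0, and so had no sign to keep. No doublets were called and the lowest levels are limited by free RNA.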
